A study of Mus musculus with 6 samples.

Results

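The Armcx genes and the Arxes genes lie in a cluster on the mouse X chromosome, and Armc10, on chromosome 5, is their autosomal relative. The family was taken as 9 named genes: Armcx1, Armcx2, Armcx3, Armcx4, Armcx5, Armcx6, Arxes1, Arxes2 and Armc10. A gene counted as measured where a probe set of the array carried its symbol alone, and where a gene had several, the brightest on average was to stand for it. Each of the 7 genes found in this way, of 19661 measured in all, had 1 probe set, so no measured value had to choose between probe sets. Armcx5 shared its 1 probe set with Gprasp1 and is described apart, and Armcx3 was not analysed here. The family was proposed with earlier results of these arrays known, so the genotype differences below describe the genes and are not independent evidence about the family.

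RNA came from megakaryocyte-erythroid progenitors of mouse bone marrow, the cells from which red cells and platelets arise, on a B6.129 strain background. The sorted cells lacked lineage markers, Sca1 and CD34, carried Kit and had little FcgrII/III. One group of 3 arrays came from Fog1+/+ animals, with both Fog1 alleles intact, and the other 3 arrays came from Fog1ki/ki animals, homozygous for a Fog1 knock-in. FOG1, encoded by Zfpm1, is a partner of the transcription factor GATA1, and no label gives the change that the knock-in carries, the animals' age or the number behind a sample. As background known of such mice, the altered FOG1 fails to recruit NuRD, a chromatin-remodelling complex. The samples are called biological replicates, but nothing says that they came from separate animals, so the p-values measure the spread between these samples.

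ARMCX proteins carry armadillo-like repeats, and several of them sit on the outer membrane of mitochondria, where they touch the Miro and TRAK machinery that moves mitochondria along microtubules. The Armcx genes are held to have arisen in placental mammals from a copy of Armc10, and the GASP proteins, which bind G protein-coupled receptors, are their close relatives. Arxes1 and Arxes2 have another origin: they are retrotransposed copies of Spcs3, a subunit of the signal peptidase complex of the endoplasmic reticulum, and are known from fat cell differentiation. They thus share the cluster but not the armadillo repeats, and the RefSeq gene table lists Spcs3 among the synonyms of both. Little is known of the family in blood cell progenitors.

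Transcript levels of 3 members were higher in Fog1ki/ki. Their promoters are shown for that reason and because the study concerns a partner of GATA1. Whether GATA1 or FOG1 acts on these genes was not tested. RefSeq promoter windows of build GRCm38.p6, from 250 bases before to 50 bases after a gene's start, matched 8 of the 9 names. The 250 bases before the start are printed from 5′ to 3′ on the strand of the gene. Capitals mark AGATAA, a form of the GATA site, or its reverse complement TTATCT, and the E-box CACGTG.
Armcx2, chrX:134809222-134809471, minus strand: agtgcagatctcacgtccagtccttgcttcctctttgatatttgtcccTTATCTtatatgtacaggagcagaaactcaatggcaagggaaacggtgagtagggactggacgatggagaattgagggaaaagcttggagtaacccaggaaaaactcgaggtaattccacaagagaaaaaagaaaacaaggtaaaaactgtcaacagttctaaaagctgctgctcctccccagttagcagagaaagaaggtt
Armcx6, chrX:134751420-134751669, minus strand: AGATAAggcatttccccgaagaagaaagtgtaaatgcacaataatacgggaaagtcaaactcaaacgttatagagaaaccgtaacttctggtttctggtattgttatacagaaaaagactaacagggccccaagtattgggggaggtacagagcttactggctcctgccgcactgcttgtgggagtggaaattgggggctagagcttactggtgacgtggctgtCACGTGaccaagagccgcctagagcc
Arxes2, chrX:135993570-135993819, plus strand: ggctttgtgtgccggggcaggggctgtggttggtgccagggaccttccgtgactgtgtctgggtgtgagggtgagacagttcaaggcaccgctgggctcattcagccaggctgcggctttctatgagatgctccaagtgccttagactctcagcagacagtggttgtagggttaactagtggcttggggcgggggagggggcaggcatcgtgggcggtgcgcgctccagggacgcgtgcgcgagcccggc

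AGATAA was found on either strand in 2 of the 8 windows, those of Armcx2, where it begins at position -202 from the start, and Armcx6, where it begins at -250. Of all 32851 RefSeq windows of 300 bases, 11.2% held it. TGATAA, another form of the GATA site, was in 0 of the 8 windows and in 9.05% of all. The window of Arxes2 held neither form, which says only that these letters are not in it. CACGTG was in 3 of the 8, Armcx1, Armcx4 and Armcx6, and in 7.15% of all windows. These motifs were chosen after the sequences had been seen, and a match is a description of letters, not of a bound site.

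Armcx1 and Armcx6 shared a run of 12 letters, ACTGGTGACGTG, beginning at position -20 from the start in Armcx1 and at -43 in Armcx6. The run, searched on both strands, was in 2 of the 32851 windows, these same 2, but it was picked by comparing them. The windows of Arxes1 and Arxes2 differed at 0 of 300 positions, so the Arxes2 sequence above is also that of Arxes1. The window of Gprasp1, which shares a probe set with Armcx5, was not among those compared. Base composition varied: G and C made up 43.6% of the 250 bases of Armcx2 and 48.0% of those of Armcx6, against 64.4% in Arxes2 and 65.6% in Armc10.

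Expression was measured with 1 array per sample, and values are on the log2 scale, so that 1 unit is a doubling. Array medians lay between 6.02 and 6.15 and lower quartiles between 4.81 and 4.92, which serve here to say whether a probe set is bright or dim; brightness does not rank genes by their transcript number. Of 7 defining progenitor genes measured (Gata1, Klf1, Epor, Kit, Gfi1b, Zfpm1 and Tal1), 0 passed the test of genotype in limma. Their mean ran from 8.45 to 8.66 over the arrays. At an unadjusted p under 0.05, 2 were lower and 0 higher, where 901 of all 19661 genes were lower. The 2 lower ones were Kit (log2 difference -0.38, limma adjusted p = 0.2325) and Gata1 (-0.29, limma adjusted p = 0.435). Arrays of the genotypes did not overlap in 3 of the 7 genes, where 14.8% of all genes had no overlap. These were Kit and Gata1, lower in Fog1ki/ki, and Tal1, higher (log2 difference 0.14, limma adjusted p = 0.669). Zfpm1 itself differed by 0.05 on the log2 scale, with an SE of 0.13 (limma adjusted p = 0.948). Because the cluster is X-linked, the sex of the arrays matters. Replicate 3 of each genotype had Xist at 11.02 and 11.03 and the Y-linked gene Eif2s3y at 3.21 and 3.46, where no other array was below 9.29. Fog1ki/ki replicate 2 had both, with Xist at 9.13 and Eif2s3y at 9.44, whereas Xist lay between 5.18 and 5.90 in the remaining 3 arrays.

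Across all 19661 genes, 0.773% passed the test of genotype at a limma adjusted p under 0.05 (152 genes, 74 higher and 78 lower in Fog1ki/ki; 43 higher and 73 lower once array medians were set equal). Of the 7 measured members, 3 were past this threshold, all of them higher, where 0.376% of all genes were higher and 0.397% lower: Armcx2, Armcx6 and Arxes2. These 3 also exceeded a log2 difference of 1, which 0.28% of all genes did. Among X-linked genes alone, 1.41% passed in either direction. The other 4 members, Armcx1, Armcx4, Arxes1 and Armc10, did not pass. The median log2 difference was 0.33 over the 7 members and 0.02 over all genes. In 5 of the 7 members the genotypes had no overlapping arrays, where 14.8% of all genes had none. As the choice of the family was made with these results known, nothing is read from these shares.

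**Figure D1:**
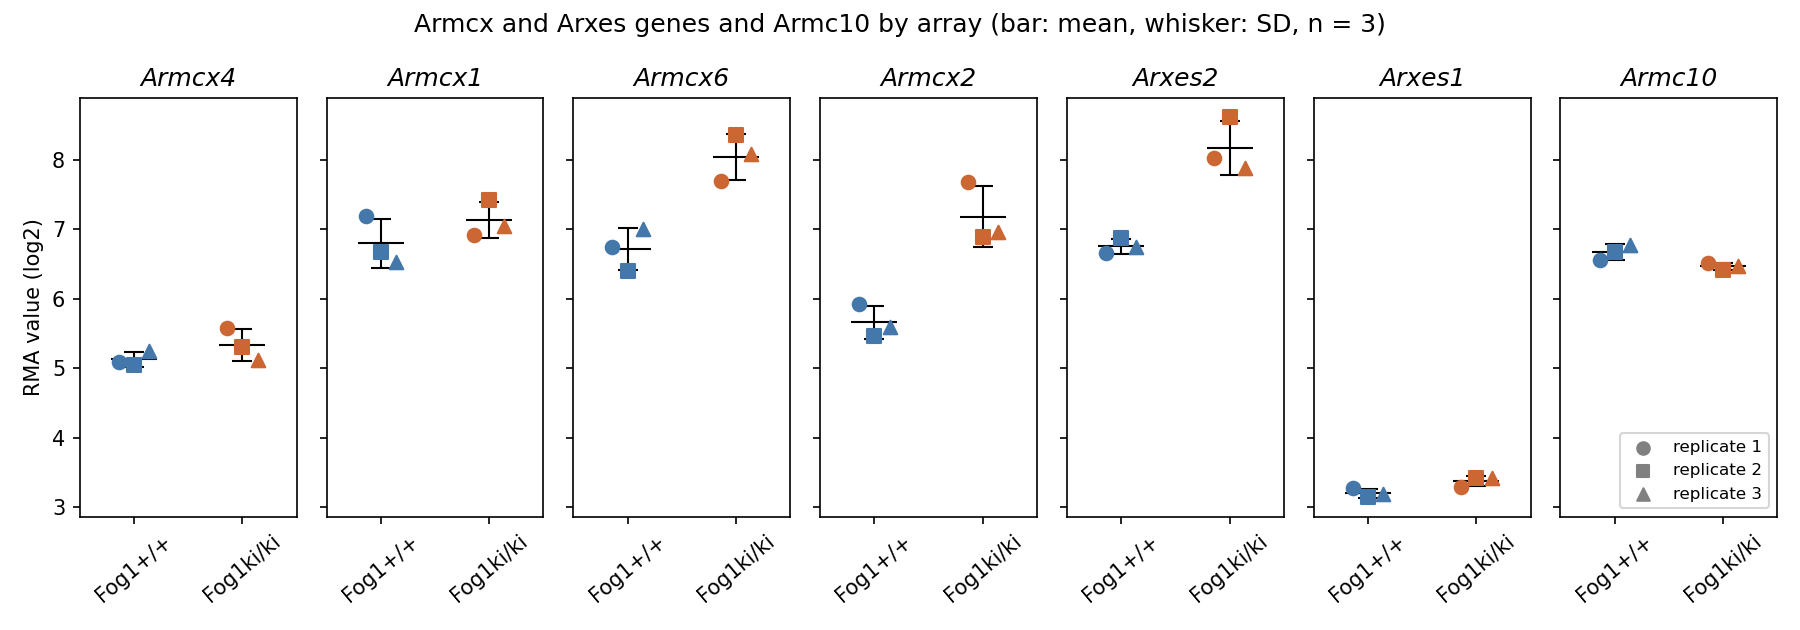
Values of the 7 measured family members in each array (y axis, RMA value on the log2 scale), with Fog1+/+ in blue and Fog1ki/ki in orange; the long bar is the mean, the whisker the SD over 3 arrays, and the marker shape the replicate number. In Armcx6, Armcx2 and Arxes2 every Fog1ki/ki array lies above every Fog1+/+ array, by contrast with the overlapping arrays of Armcx4 and Armcx1.

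Armcx2, also called ALEX2, is one of the armadillo-repeat members anchored by a short hydrophobic stretch near the N-terminus. Its Fog1+/+ arrays read 5.92, 5.46 and 5.60, and its Fog1ki/ki arrays 7.69, 6.89 and 6.97. Every Fog1+/+ value lay below the array medians and every Fog1ki/ki value above them, with replicate 1 the highest of the Fog1ki/ki arrays. Mean values were 5.66 ± 0.24 in Fog1+/+ and 7.18 ± 0.44 in Fog1ki/ki (SD, n = 3 each), a 2.87-fold increase (limma adjusted p = 0.0156). Its log2 difference was 1.52, with a 95% interval from 1.05 to 2.0.

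Armcx6, a short member of the family, lies next to Armcx2 among the tested genes. Its values were 6.75, 6.40 and 7.01 in Fog1+/+ and 7.70, 8.36 and 8.09 in Fog1ki/ki. The genotypes did not overlap, the closest arrays being Fog1+/+ replicate 3 and Fog1ki/ki replicate 1, and here replicate 2 was the highest Fog1ki/ki array. Means of 6.72 ± 0.31 and 8.05 ± 0.33 (SD, n = 3 each) made a rise of 2.51-fold (limma adjusted p = 0.0188), with a 95% interval of the log2 difference from 0.89 to 1.77.

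Arxes2, an Spcs3-derived gene, had Fog1+/+ values of 6.66, 6.87 and 6.74, the tightest of the 3 increased genes in that genotype. In Fog1ki/ki it measured 8.03, 8.62 and 7.88, again with replicate 2 on top. The lowest Fog1ki/ki array thus stood above the highest Fog1+/+ array. Arxes2 rose 2.68-fold, its means being 6.76 ± 0.11 and 8.18 ± 0.39 (SD, n = 3 each; limma adjusted p = 0.00864), with a 95% interval of the log2 difference from 1.02 to 1.82.

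The increases of these genes were of like size, and their intervals overlapped. Within each array the gap between Armcx2 and Armcx6 was compared between genotypes, and it shifted by 0.19 on the log2 scale (two-sided exact permutation p = 0.9). For Arxes2 and Armcx6 the shift was 0.09 (exact permutation p = 0.9). In all, 6 pairs were compared, the others setting an increased member against 1 that did not pass. The pairs were picked with these calls known. For those other pairs a shift above 0 follows from the choice, and nothing is read from it. The shift was 1.24 for Arxes2 and Arxes1, 1.19 for Armcx2 and Armcx1, 1.13 for Armcx6 and Armcx4 and 1.0 for Armcx6 and Armcx1. Each of these had an exact permutation p of 0.1 (0.15 after Benjamini-Hochberg over the 6 pairs). The smallest p of this test is 0.1 with 3 against 3 arrays, and a p of 0.9 does not show that the increases were equal. The Fog1ki/ki arrays ranked differently by gene: replicate 1 led in Armcx2, whereas replicate 2 led in Armcx6 and Arxes2.

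Each of the 3 calls was lost in some fits with fewer arrays, depending on which arrays were left out. The Armcx2 call was lost without Fog1+/+ replicate 2 or 3 (limma adjusted p = 0.0560 and 0.0897), and that of Arxes2 without Fog1+/+ replicate 1 or 3 (limma adjusted p = 0.0542 and 0.0602). Armcx6 lost its call when Fog1+/+ replicate 1, Fog1+/+ replicate 2, or either of the Fog1ki/ki replicates 2 and 3 was left out, at limma adjusted p between 0.0534 and 0.0876. The log2 differences changed less, staying between 1.27 and 1.67 for Armcx2, 1.17 and 1.51 for Armcx6 and 1.20 and 1.57 for Arxes2 in 16 alternative settings. With a term for replicate 3 of both genotypes, the arrays with little Y-linked signal, all 3 remained past the threshold (limma adjusted p from 0.0132 to 0.0244). Without both of those arrays, and with 2 left per genotype, none did (limma adjusted p from 0.0916 to 0.193), at log2 differences of 1.46 for Armcx6, 1.56 for Arxes2 and 1.6 for Armcx2. Without Fog1ki/ki replicate 2, the array with both Xist and Y-linked signal, the log2 differences were 1.67 for Armcx2, 1.18 for Armcx6 and 1.20 for Arxes2.

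**Figure D2:**
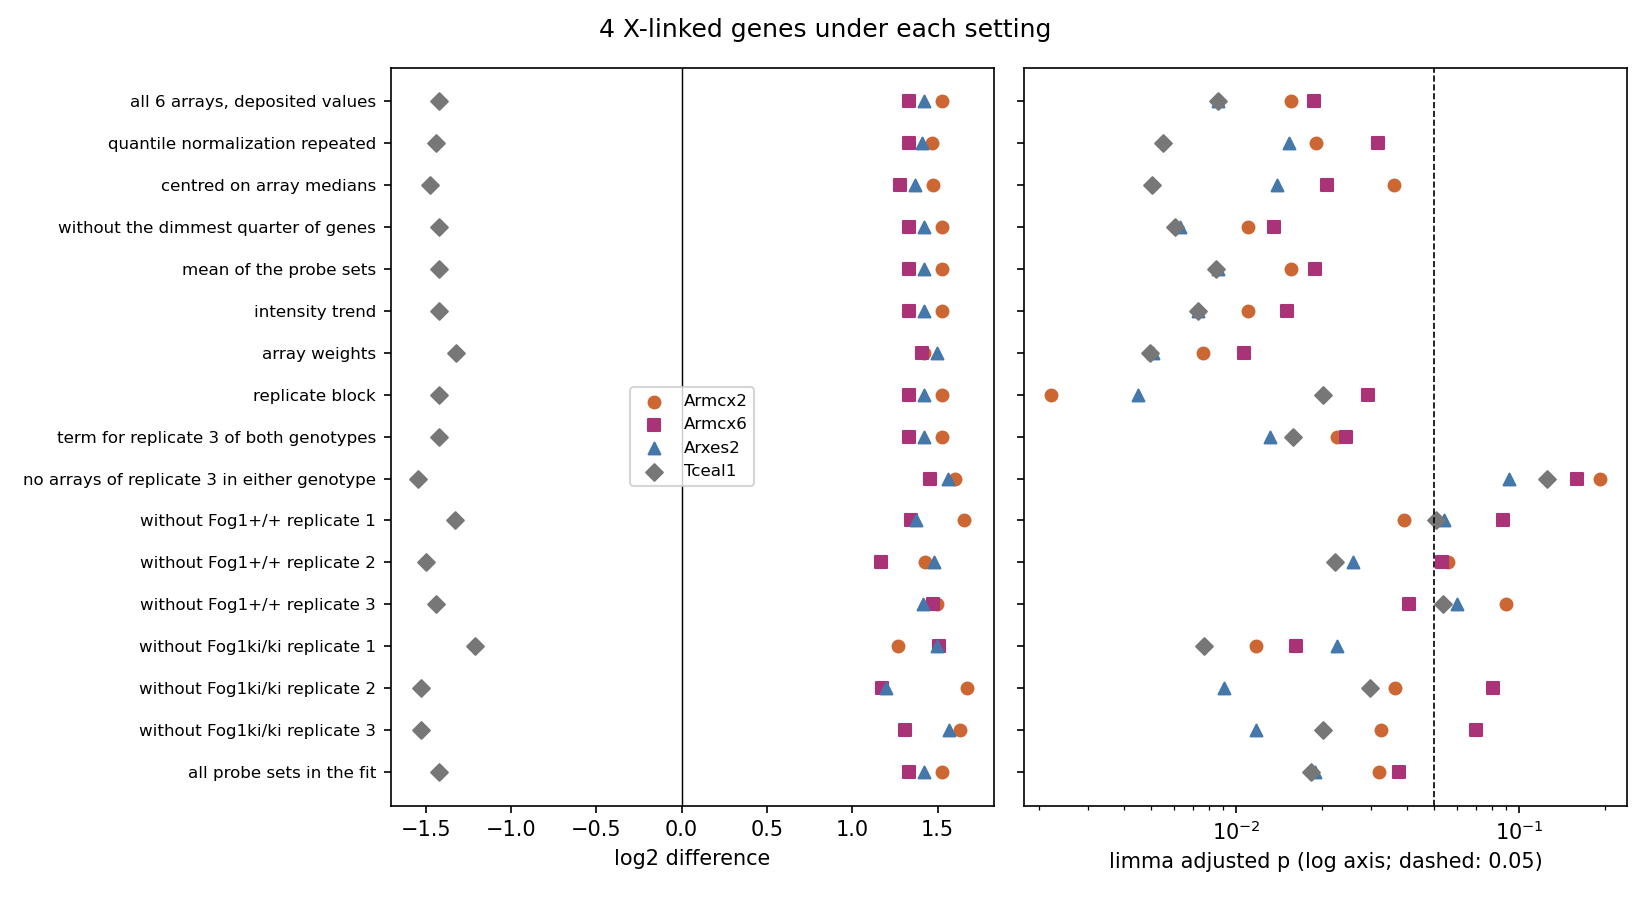
Log2 difference between Fog1ki/ki and Fog1+/+ (left) and limma adjusted p (right, log axis, dashed line at 0.05) of Armcx2, Armcx6, Arxes2 and the neighbouring gene Tceal1 over all 6 arrays and under 16 alternative settings. The differences keep their sign and lie between 1.17 and 1.67 in the 3 family members, while their adjusted p crosses the line in some settings with fewer arrays.

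The remaining armadillo-repeat genes of the cluster did not pass. Armcx1, or ALEX1, known from mitochondrial transport in axons, measured 7.20, 6.67 and 6.53 in Fog1+/+ and 6.92, 7.42 and 7.05 in Fog1ki/ki. The genotypes overlapped, since Fog1+/+ replicate 1 lay above 2 of the Fog1ki/ki arrays. Its log2 difference was 0.33, with a 95% interval from -0.10 to 0.76 (limma adjusted p = 0.646). Armcx4 was dim in all arrays, at 5.09, 5.05 and 5.25 in Fog1+/+ and 5.58, 5.30 and 5.12 in Fog1ki/ki. All 6 of these values lie between the lower quartiles and the medians of the arrays, and the log2 difference was 0.20 (95% interval -0.09 to 0.50, limma adjusted p = 0.685). RMA compresses differences of dim probe sets, and this limits what Armcx4 can show.

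The probe set shared by Armcx5 and Gprasp1 measured 7.67, 7.63 and 7.73 in Fog1+/+ and 7.58, 7.58 and 7.21 in Fog1ki/ki. It cannot be divided between the genes, one an ARMCX protein and the other a sorting protein of G protein-coupled receptors. Its log2 difference was -0.22 (95% interval -0.49 to 0.05), and it did not pass in a fit over all 25668 probe sets (limma adjusted p = 0.673).

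Arxes1, the twin of Arxes2 by its promoter, was near the bottom of the scale. It measured 3.27, 3.14 and 3.19 in Fog1+/+ and 3.29, 3.42 and 3.42 in Fog1ki/ki, below the lower quartile of every array and close to the level of Eif2s3y in both arrays with little Y-linked signal. The genotypes differed by 0.18 on the log2 scale (95% interval -0.03 to 0.38, limma adjusted p = 0.603). Near-identical genes can share probes, so how far each Arxes probe set reports its own gene alone is uncertain.

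Armc10, the autosomal relative, measured 6.56, 6.68 and 6.78 in Fog1+/+ and 6.52, 6.42 and 6.47 in Fog1ki/ki. All Fog1ki/ki values lay below all Fog1+/+ values, though by little, and the log2 difference of -0.20 did not pass (95% interval -0.42 to 0.01, limma adjusted p = 0.558). It was the only measured member with a negative difference.

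**Figure D3:**
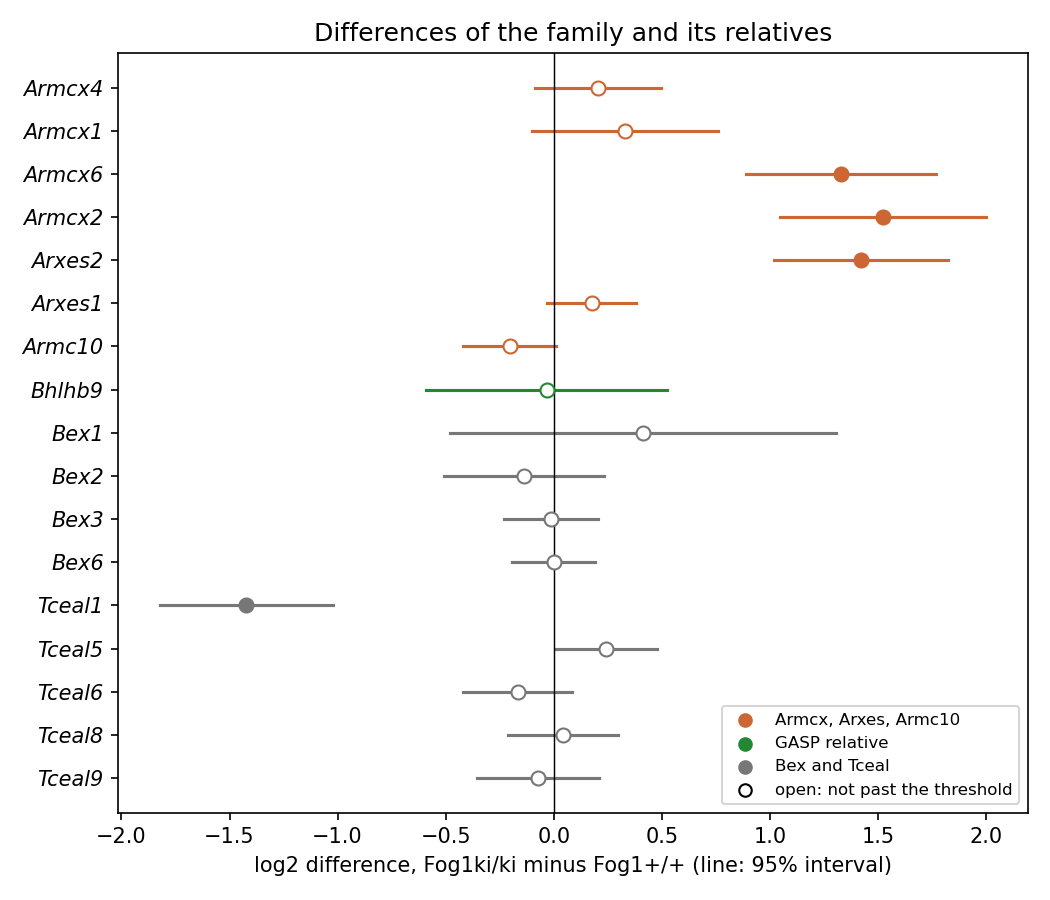
Log2 difference, Fog1ki/ki minus Fog1+/+, of the 7 measured members (orange), the GASP relative Bhlhb9 (green) and 9 Bex and Tceal genes (grey); lines are 95% intervals and filled points passed limma at an adjusted p under 0.05. Armcx2, Armcx6 and Arxes2 stand at 1.33 to 1.52 and Tceal1 at -1.42, while the intervals of the other members reach 0.

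Among the GASP relatives, Bhlhb9, also known as GASP3, was the 1 gene with a probe set of its own. Its values were 9.10, 8.36 and 8.71 in Fog1+/+ and 8.55, 9.21 and 8.31 in Fog1ki/ki, fully overlapping, and the genotypes differed by -0.03 (log2, limma adjusted p = 0.983). The Bex and Tceal genes, small acidic proteins and transcription elongation factor-like proteins, fill the neighbouring part of the X chromosome, apart from Bex6 on chromosome 16. Of 9 measured, 1 fell, 0 rose and 8 did not pass in limma, with a median log2 difference of -0.01. Of all genes, 0.397% fell and 0.376% rose by the same test.

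The gene that fell was Tceal1, whose product resembles the elongation factor TFIIS. Tceal1 measured 7.96, 7.62 and 7.74 in Fog1+/+ and 5.93, 6.56 and 6.56 in Fog1ki/ki. Fog1ki/ki replicate 1, the highest array for Armcx2, was the lowest here, and the genotypes did not overlap. Means were 7.77 ± 0.17 in Fog1+/+ and 6.35 ± 0.36 in Fog1ki/ki (SD, n = 3 each), so Tceal1 was 2.68-fold lower (limma adjusted p = 0.00864), a call lost without Fog1+/+ replicate 1 or 3 (limma adjusted p = 0.0507 and 0.0536). Bex1 varied most among the 9, from 6.07 to 6.94 in Fog1+/+ and from 6.30 to 7.90 in Fog1ki/ki, and its log2 difference of 0.41 did not pass (SE 0.39). Differences of the other 7 ranged from -0.17 in Tceal6 to 0.24 in Tceal5.

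RefSeq gene order placed the X-linked members in one stretch in the order Armcx4, Armcx1, Armcx6, Armcx2, Arxes2 and Arxes1. With 8 other tested genes between Armcx2 and Arxes2 and 10 tested genes on each side, the stretch held 34 genes. Of the 28 that are not members, 1 passed in limma, Tceal1 at the far end, and 4 had an unadjusted p under 0.05, where 9.57% of all genes did. Their differences had a median of 0.03 and ran from -1.42 to 0.49. The genes next to Armcx2 on the far side from Armcx6 were Nxf2, an mRNA export factor, and Zmat1, a zinc finger protein. In log2 units Nxf2 differed by 0.49 (limma adjusted p = 0.203) and Zmat1 by 0.35 (limma adjusted p = 0.278), neither past the threshold. Nxf2 was dim, with means of 4.29 in Fog1+/+ and 4.78 in Fog1ki/ki, below the lower quartile of every array. Arrays of the genotypes did not overlap in either gene. The same held for 5 of the 28 genes that are not members, where 14.8% of all genes had no overlap. On the other side of the cluster, the galactosidase gene Gla and the kinase gene Btk had log2 differences of -0.27 and -0.02, and between Arxes2 and Zmat1 the values ran from -0.17 to 0.19.

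**Figure D4:**
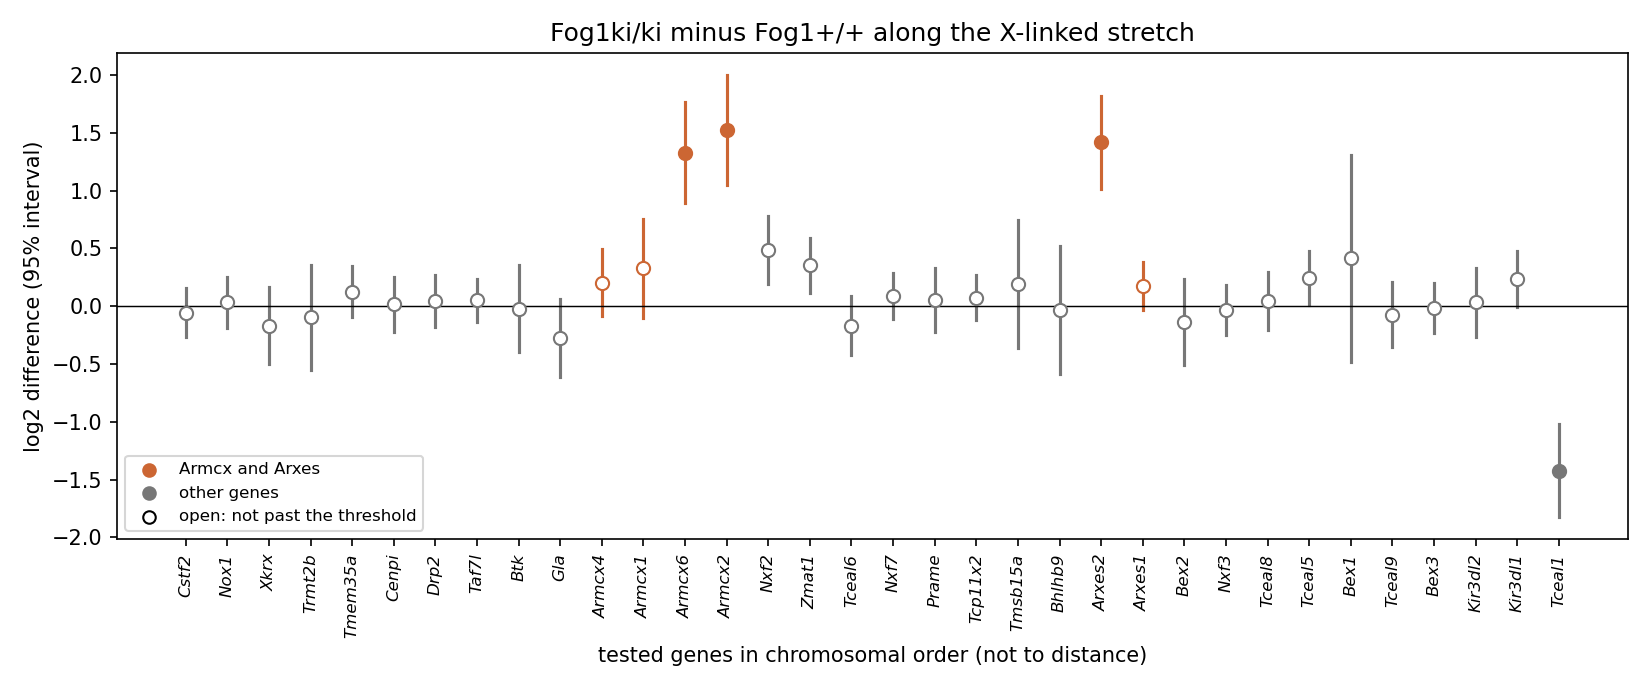
Log2 difference, Fog1ki/ki minus Fog1+/+, of 34 tested genes in their order along the X chromosome, evenly spaced and not to distance; lines are 95% intervals, family members are orange and filled points passed limma at an adjusted p under 0.05. Armcx6 and Armcx2 are adjacent, and 8 genes that did not pass lie between Armcx2 and Arxes2. Nxf2 (0.49) and Zmat1 (0.35), the first of them after Armcx2, have intervals above 0, as does Tceal5 (0.24), beyond Arxes1. Tceal1, at the right edge, has the opposite sign at -1.42.

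Partners of the protein families were read from lists of genes. Of 21 genes of mitochondrial transport and outer membrane dynamics, 0 passed in limma. With p-values left unadjusted, 0 were higher and 1 lower at 0.05, where 981 and 901 of all 19661 genes were. The median log2 difference was -0.04. The smallest p belonged to Mfn1, a mitofusin, which measured 9.68, 9.88 and 9.65 in Fog1+/+ and 9.53, 9.43 and 9.26 in Fog1ki/ki (log2 difference -0.33, limma adjusted p = 0.332). Rhot1, which encodes Miro1, had a log2 difference of -0.24, Trak1 one of -0.18 and Trak2 one of 0.03. Arrays of the genotypes overlapped in all 3 of these motor-adaptor genes.

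The signal peptidase complex, parent of the Arxes genes, was bright in every array, and 0 of its 5 genes passed in limma (0 at an unadjusted p under 0.05). Spcs3 itself measured 11.45, 11.43 and 11.41 in Fog1+/+ and 11.49, 11.44 and 11.32 in Fog1ki/ki, a log2 difference of -0.01 (95% interval -0.22 to 0.19). In the complex, Spcs2 had the smallest p and a difference of -0.19 (log2, limma adjusted p = 0.556). Of 28 other armadillo-repeat proteins, among them the catenins, plakophilins and importins alpha, 1 rose and 27 did not pass, with a median of 0.02. It was Pkp2, a desmosomal plakophilin, which measured 5.48, 5.27 and 5.53 in Fog1+/+ and 6.06, 6.20 and 5.95 in Fog1ki/ki. The 1.56-fold increase (limma adjusted p = 0.0384) lost its call in 12 of 16 settings (limma adjusted p up to 0.204), including each array left out in turn.

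The genes whose values correlated best with those of the increased members, among genes brighter than the median gene, are given as a description over 6 arrays. Since the arrays fall into the genotypes, such values are high for any gene that differs between them. Closest to Armcx2 were the annexin gene Anxa4 (Pearson r = 0.994), the exchange factor gene Dock8 (0.992) and the inositol kinase gene Itpkb (0.991), followed by Lrrc29 and Fuom. All 5 shared with Armcx2 a top value in Fog1ki/ki replicate 1. Closest to Armcx6 were Sost (0.990) and the zinc finger gene Zbtb20 (0.986), followed by Zfp219, Prrt1 and Tbc1d10b, and closest to Arxes2 were the G protein gene Gna14 (0.992), Zfp146 (0.991), Eno3, Rasa1 and Nebl. The lists for Armcx2, Armcx6 and Arxes2 had 0 genes in common. Pearson r takes no account of the size of a change, and log2 differences of the 15 genes ran from 0.12 in Zfp219 to 1.85 in Nebl. Of the 15 genes, 5 were past the threshold over all genes, where 0.773% of all genes were: Anxa4, Dock8, Itpkb, Gna14 and Nebl. As the 15 were picked for their likeness to members past the threshold, nothing is read from this count.

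Markers of other cells were read beside these values. Of 8 mast cell markers, 1 passed in limma, Ms4a2, where 0.773% of all genes did. At an unadjusted p under 0.05, 3 were higher, as were 981 of all 19661 genes. Differences lay above 0 in 8, as they did in 11075 of all genes. In log2 units they ran from 0.06 to 3.79, with a median of 0.21. The mean over the list ran from 4.80 to 4.85 in Fog1+/+ and from 5.43 to 5.94 in Fog1ki/ki. Ms4a2 rose from between 4.67 and 4.80 to 9.15, 8.64 and 7.80. Fcer1a, which encodes another chain of the IgE receptor, measured 4.64, 4.61 and 4.65 in Fog1+/+ and 7.46, 6.93 and 5.24 in Fog1ki/ki without passing (limma adjusted p = 0.147). Cma1, a granule protease gene, measured 4.78, 4.82 and 4.80 in Fog1+/+ and 4.94, 5.10 and 5.0 in Fog1ki/ki (limma adjusted p = 0.486). Mcpt4, another protease gene, lay between 3.79 and 4.24 in all arrays. Of 5 megakaryocyte, 8 neutrophil and monocyte, 6 stem cell, 5 lymphoid and 9 stromal, endothelial and neural markers, 0 passed in limma. With p-values left unadjusted, 2, 0, 2, 1 and 0 of them were under 0.05, where 9.57% of all genes were. The smallest p of each list, in this order, belonged to Pf4, Ly6g, Hlf, Cd3g and Pecam1. Their log2 differences were 0.97, -0.32, 0.36, -0.28 and -0.13 (limma adjusted p = 0.266, 0.604, 0.292, 0.348 and 0.778). Arrays of the genotypes did not overlap in Pf4, Hlf and Cd3g. Over the 5 lists, in the same order, 2, 0, 3, 1 and 0 markers had no overlap, where 14.8% of all genes had none. The further ones were Itga2b (log2 difference 0.31) among megakaryocyte markers and Meis1 (0.60) and Mecom (0.19) among stem cell markers. The stromal, endothelial and neural list held 2 neuronal genes, Tubb3 and Snap25, and no fat cell gene. Its means ran from 5.78 to 5.86 in Fog1+/+ and from 5.83 to 5.90 in Fog1ki/ki. Whether differences in the markers of any of these lists have a part in the increases of Armcx2, Armcx6 and Arxes2 was not tested. In RNA from bulk cells, more cells of a type and more RNA per cell cannot be told apart.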

How the data were processed

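Trizol RNA was amplified (WT-Ovation Pico), turned into cDNA of the sense strand and given a biotin label for 1-colour arrays, per the labels' protocols. The values deposited by the authors are on the log2 scale, as read from the values, and come from RMA per the submitters' processing notes, with settings not given in the sources used here. Of 25668 probe sets, 20777 had 1 gene symbol in the platform annotation, 232 several and 4659 none, and 19661 genes were tested with no filter. Gene order came from a RefSeq table on GRCm38.p6, which matched 19583 genes.

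The test of genotype, alone in the model and two-sided, was lmFit with eBayes from limma 3.58.1 under R 4.3.3 (Benjamini-Hochberg over all genes, threshold 0.05, 95% intervals from the same fit). The scripts were tested on simulated data. Tables and figures used Python 3.11.15, pandas 2.3.3 and matplotlib 3.10.9. The members, lists and tests were chosen with earlier results of these data known. All members were named. Partner, armadillo-repeat, progenitor and cell type lists gave up to 2 members past the threshold per direction or else the smallest p. Neighbours were the 10 tested genes on each side. Likeness gave 5 genes per increased member, without predicted gene models. Further genes were named after their values were seen. The number of arrays limits the precision. Same-numbered samples deviated together by correlations of 0.07, -0.01 and 0.13, so the numbers were not taken as pairs.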

Additional observations from a re-analysis of the deposited data

How the results depend on the processing

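The 16 alternatives were a repeated quantile normalization, array medians set equal, the dimmest 0.25 of genes removed, probe sets averaged, weights per array, a trend with intensity, a replicate block, a term for replicate 3, both replicates 3 removed, leaving out each of 6 arrays and, chosen after seeing the data, a fit of all probe sets. The 7 members kept their direction in every one that could be run; Arxes1 had no value without the dimmest genes. The family count of 3 ran from 1 to 3 with 1 array left out: 1 without any one of the Fog1+/+ arrays, 2 without Fog1ki/ki replicate 2 or 3 and 3 without Fog1ki/ki replicate 1. Without both replicates 3 it was 0, and 24 genes passed in all. With single arrays left out, the total of 152 genes ran from 60 to 134, the Bex and Tceal count of 1 from 0 to 1 and that of the other armadillo-repeat genes of 1 from 0 to 0. Without both replicates 3 the Bex and Tceal count was 0. The armadillo-repeat count was also 0 with quantile normalization repeated, centring, the replicate block, the term for replicate 3, both replicates 3 left out and all probe sets. With the replicate number as a block the family count was 3 and 133 genes passed, and Pkp2 lost its call (adjusted p = 0.0945, limma), while Tceal1 kept it (adjusted p = 0.0202, limma); Ms4a2 was not followed. Replicates 1 and 3 correlated best with their own number and replicate 2 did not, which is a hint from the data and not from the design. Centring moved the median difference of all genes from 0.02 to -0.03.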

Other observations

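Of 709 X-linked genes tested, 5 were higher and 5 lower in Fog1ki/ki (1.41%, limma adjusted p under 0.05). Besides Armcx2, Armcx6 and Arxes2, the higher ones were Tmsb4x, which encodes an actin-binding thymosin, with a log2 difference of 1.56, and the exchange factor gene Dock11, with 1.42. Tmsb4x measured 9.34, 9.41 and 9.46 in Fog1+/+ and 11.05, 11.05 and 10.80 in Fog1ki/ki. Dock11 measured 7.16, 7.57 and 7.38 in Fog1+/+ and 9.08, 8.86 and 8.44 in Fog1ki/ki. The 5 lower ones, named after their values were seen, were Tceal1 (-1.42), Prrg1 (-1.10), Septin6 (-0.64), Xk (-0.60) and Ftsj1 (-0.53). Of 4 X-linked genes known to escape inactivation, Kdm5c, Kdm6a, Eif2s3x and Ddx3x, 0 passed in limma (0 at an unadjusted p under 0.05), with log2 differences from -0.20 to -0.03.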
